A study of Homo sapiens with 18 samples.

Results

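The comparison described here set MDA-MB-231 cells that carried a hairpin against EZH2 beside cells that carried a control hairpin, across all genes with enough reads to be tested. Its members were the 2 libraries labelled shEZH2 and the 2 labelled control shRNA, 4 of the 10 distinct RNA-seq libraries of the study. The 18 sample records held these 10 libraries because 8 of them held values identical to those of another record, and no library was counted more than 1 time. MDA-MB-231 is an established human line of triple-negative breast cancer, which lacks the estrogen and progesterone receptors and HER2 amplification. All 4 libraries came from cells infected for 24 h with a pLKO.1 lentivirus that encoded a short hairpin RNA (shRNA) and then kept in puromycin at 2 μg/ml for 72 h, so that the control cells shared the virus, the vector and the selection. Cells with a hairpin against E2F1 (shE2F1, 2 libraries) went through the same steps. Their libraries entered the filter on low counts, the scaling and the estimate of the spread between replicates, but not the comparison itself. The drug arm of the study, used for 1 comparison near the end, held 2 libraries of cells given 1 μM GSK126, which blocks the catalytic activity of EZH2, for 72 h and 2 libraries of cells given its solvent DMSO. The labels name 1 hairpin for EZH2, so that effects of losing EZH2 and effects of this hairpin on other transcripts cannot be told apart. Nothing in the labels says that replicates were separate cultures, so the p-values measure only the spread between these libraries, which may be technical.

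EZH2 carries the catalytic activity of PRC2, a Polycomb complex that it forms with SUZ12, EED and the histone-binding proteins RBBP4 or RBBP7. PRC2 places methyl groups on lysine 27 of histone H3, a mark of silenced genes, and PRC1 is a second Polycomb complex that ubiquitinates histone H2A and can bind that mark. EZH2 is known to be abundant in dividing cells and in aggressive breast cancers, is itself transcribed under control of the RB and E2F pathway, and has also been described as a coactivator that acts without methylation.

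Libraries held from 13198932 (shEZH2 replicate 1) to 19491509 (control shRNA replicate 1) expected counts, and a gene with 0 counts could still have stood at 0.154 CPM in the deepest and 0.227 CPM in the shallowest of them, as far as counting error goes. CPM here is the level of a gene scaled to the total counts of its library, after TMM scaling. The limits for 0 counts use the total counts alone, before TMM scaling, and so differ slightly in scale from the CPM values. The mesenchymal and basal genes that mark MDA-MB-231 were above 1 CPM for 8 of 8 genes, while ESR1 and PGR, which define hormone-receptor-positive tumors, had 0 counts in all 4 libraries. Of 8 leukocyte markers only CD68, with 92.3% of its 50-base stretches also in another annotated gene, exceeded a mean of 1 CPM, and CD3E and MS4A1 were at 0. Of 6 endothelial markers VWF and KDR exceeded it, and of 8 markers of HEK293T, the cells that packaged the virus, 0 did. VWF was above 1 CPM only in the shEZH2 libraries, at 0.108 and 0.303 CPM in control against 1.82 and 2.65 CPM, and rose past the thresholds given below. The summed level of the MDA-MB-231 genes was 9352 and 10030 CPM in the control libraries and 4984 and 4744 CPM in the shEZH2 libraries, and the sum of the endothelial markers was 6.67 and 6.43 against 11.4 and 11.1 CPM. Of the 8 MDA-MB-231 genes, VIM, AXL and CAV1 fell past the thresholds given below, and 5 did not. CD44 was at 691 and 807 against 748 and 828 CPM, and EGFR at 609 and 556 against 588 and 488 CPM. Luminal and receptor genes summed to 3353 and 3021 against 2114 and 2293 CPM and leukocyte markers, nearly all of it CD68, to 86.3 and 86.3 against 34.0 and 29.4 CPM, and the part of these shifts in the results below was not tested. In RNA from many cells together, fewer cells of a type and less RNA per cell cannot be told apart.

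EZH2 (ENSG00000106462, GRCh38 chromosome 7, 148807257 to 148884321, minus strand) measured 155 and 183 CPM with the control hairpin against 53.1 and 44.8 CPM with its own. Both shEZH2 libraries thus lay below both controls, at 169 ± 19.5 against 49.0 ± 5.83 CPM (mean ± SD, n = 2 each). The fall was 3.46-fold, a log2 change of -1.79 ± 0.12 (standard error, as after every ± on a log2 change below; edgeR adjusted p = 2.40e-06). None of the other 5 core genes of PRC2 was called, that is, none passed an adjusted p under 0.01 together with a change of more than 2-fold. EZH1, the other methyltransferase that can fill the catalytic place, measured 32.6 and 28.2 against 35.4 and 40.2 CPM (log2 0.31 ± 0.13), and EED, the subunit that reads the mark, 38.9 and 44.5 against 52.2 and 48.5 CPM (log2 0.27 ± 0.11). SUZ12, the scaffold of the complex, measured 133 and 153 against 153 and 147 CPM (log2 0.07 ± 0.10), with overlapping groups. RBBP4 had an adjusted p of 0.000147 in edgeR at a log2 change of -0.65 ± 0.09, short of 2-fold, and RBBP7 was at -0.18 ± 0.09. Of the exon bases of RBBP4, 22.8% lie opposite a gene on the other strand.

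Among the accessory subunits that steer PRC2 to its sites, JARID2 rose from 89.3 and 75.8 to 182 and 205 CPM (log2 1.23 ± 0.11). PHF19, a Polycomb-like protein that binds CpG-rich DNA, fell from 266 and 290 to 136 and 125 CPM (log2 -1.09 ± 0.09), but missed the 2-fold requirement at -0.83 both in a fit corrected for GC content and length and in one with effective length as an offset. Of 21 PRC1 genes tested, RYBP, a subunit of the variant complexes, and BMI1, a RING partner in the canonical ones, were called higher and 0 were called lower, a share of 9.52% beside 7.52% called higher over all genes tested. RYBP was at 41.5 and 41.0 against 93.5 and 91.8 CPM (log2 1.17 ± 0.10), and at 0.87 after the GC and length correction. BMI1 was at 73.0 and 78.2 against 145 and 158 CPM (log2 1.01 ± 0.09), so close to the 2-fold line that the call was lost in 6 of 14 alternatives, among them 0.91 after that correction, 0.95 without control replicate 1 and 0.96 without shEZH2 replicate 2. Of the 50-base stretches of BMI1, 27.3% also occur in the readthrough gene COMMD3-BMI1. The demethylases and acetyltransferases of lysine 27 had 0 of 4 tested genes called.

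The test covered 15373 genes and called 2803 of them (18.2%), with 1156 (7.52%) up and 1647 (10.7%) down in shEZH2, and the median change over all tested genes was -0.02 on the log2 scale. Counts of called genes in the lists below are to be read beside the 7.52% and 10.7% of all genes. Control and shEZH2 libraries did not overlap in 11906 of the 15373 genes (77.45%), nor in any of the 2803 called genes. Calls in either direction were not spread evenly over expression levels. Among the 2031 genes whose mean control level was under 1 CPM, 13.8% were called higher and 1.67% lower, where the filter on low counts keeps a gene that is low in control only if it is higher elsewhere. Among the 2414 genes over 100 CPM, 1.91% were called higher and 11.2% lower. By kind of gene, 7.38% of 12840 protein-coding genes were called higher and 11.4% lower, and 8.41% and 7.93% of 1878 long noncoding RNA genes. The 131 genes of other RNA classes had 19.8% called higher and 4.58% lower.

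The direction of change also varied with base composition. Between the bin with the lowest GC content in exons, of 10 equal bins, and the bin with the highest, the median log2 change went from 0.22 to -0.51, and the share called lower from 2.93% to 25.1%. The share called higher went from 8.78% to 4.36%. By chromosome, 15.6% of genes were called lower and 4.82% higher on chromosome 11, 14.8% and 3.93% on chromosome 19, and 2.80% and 10.0% on chromosome 13. After a correction of GC content and length in each library, the calls were 1168 higher and 1321 lower, so that the share of higher calls went from 41.2% to 46.9%. The part of base composition in the results below was not tested, and where this correction ended the call of a named gene its value stands beside the gene.

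**Figure D1:**
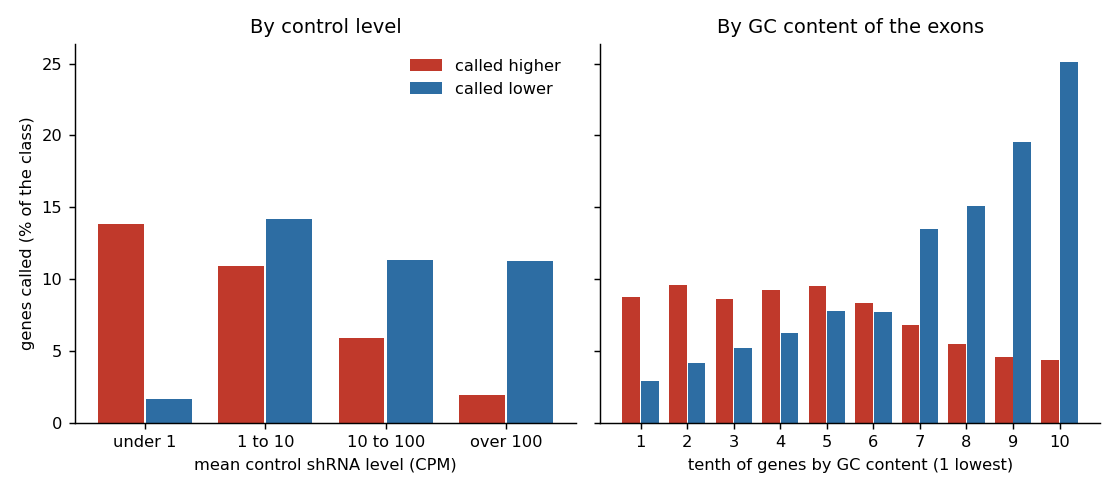
Percentage of genes called higher (red) and lower (blue) in shEZH2, on a linear axis from 0, for 4 classes of mean control level in CPM (left) and for equal bins of genes ordered by GC content of the exons (right). Genes over 100 CPM were called lower in 11.2% and higher in 1.91%, and the bin richest in GC was called lower in 25.1%.

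The 15 largest rises among well-counted protein-coding genes ran from 5.71 down to 2.80 on the log2 scale. KRTAP2-3, a keratin-associated protein of hair, went from 4.89 and 11.3 to 369 and 467 CPM (log2 5.71 ± 0.29), with 39.7% of its 50-base stretches also found in KRTAP2-4 and a change of 6.42 without control replicate 2. ANGPTL4, a secreted inhibitor of lipoprotein lipase, went from 4.95 and 6.55 to 144 and 171 CPM (log2 4.79 ± 0.16). In both, every shEZH2 library stood more than an order of magnitude above every control library. SPNS2, which exports sphingosine 1-phosphate, rose from 2.42 and 2.12 to 44.5 and 53.3 CPM (log2 4.42 ± 0.17). LOX, the secreted oxidase that crosslinks collagen and elastin, rose from 19.96 and 14.38 to 319 and 383 CPM (log2 4.35 ± 0.16). The small GTPase RRAD rose by 4.36 ± 0.19 (4.96 after the GC and length correction), xanthine dehydrogenase XDH by 4.20 ± 0.19, the vasoconstrictor peptide EDN2 by 3.90 ± 0.26, COBLL1 by 3.38 ± 0.21 (2.72 with effective length as an offset), the histone demethylase KDM7A by 3.10 ± 0.16, the stress transcription factor ATF3 by 3.06 ± 0.16 and CACFD1 by 2.80 ± 0.17. The remaining 4 of the 15 largest rises were the metallothioneins MT1X and MT1E and the histone genes H2BC21 and H2BC4, described below. All 15 kept the call in each of the 14 alternative fits.

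The 15 largest falls, chosen in the same way, ran from -3.84 to -3.04. UCP2, an inner-membrane carrier of the uncoupling protein family, went from 180 and 147 to 17.6 and 5.99 CPM (log2 -3.84 ± 0.35). The shEZH2 libraries differed from each other for UCP2, with a change of -4.77 without replicate 1 and -3.21 without replicate 2. MYRF, a membrane-bound transcription factor known from myelination, fell from 25.9 and 20.1 to 1.37 and 1.84 CPM (log2 -3.82 ± 0.24). SEMA3B, a secreted semaphorin, fell from 169 and 80.9 to 11.5 and 7.67 CPM (log2 -3.72 ± 0.32), and HSPG2, which encodes the basement membrane proteoglycan perlecan, from 426 and 265 to 36.1 and 22.5 CPM (log2 -3.57 ± 0.25). For both, control replicate 1 was the higher control, both shEZH2 libraries were far below either, and SEMA3B was at -3.10 without that control. COL8A1, a short-chain collagen, fell from 438 and 451 to 44.1 and 31.0 CPM, 11.9-fold (log2 -3.57 ± 0.15). IGFBP4, a binding protein of insulin-like growth factors, fell from 1332 and 1196 to 163 and 102 CPM (log2 -3.25 ± 0.18), and the cytokine IL11 from 149 and 136 to 17.6 and 15.8 CPM (log2 -3.09 ± 0.11). Further down came the receptor kinase MST1R (-3.50 ± 0.27, or -4.09 without shEZH2 replicate 1), the BMP-induced inhibitor ID1 (-3.46 ± 0.18), the lipid transcription factor SREBF1 (-3.35 ± 0.30, or -2.76 without control replicate 1), the imprinted gene PHLDA2 (-3.16 ± 0.14), SEMA3F (-3.12 ± 0.15), the glutathione-metabolizing GGT5 (-3.10 ± 0.23) and BTBD2 (-3.04 ± 0.18). OASL, at -3.81 ± 0.24, is described with the interferon genes. Each of the 15 kept the call in those fits as well.

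**Figure D2:**
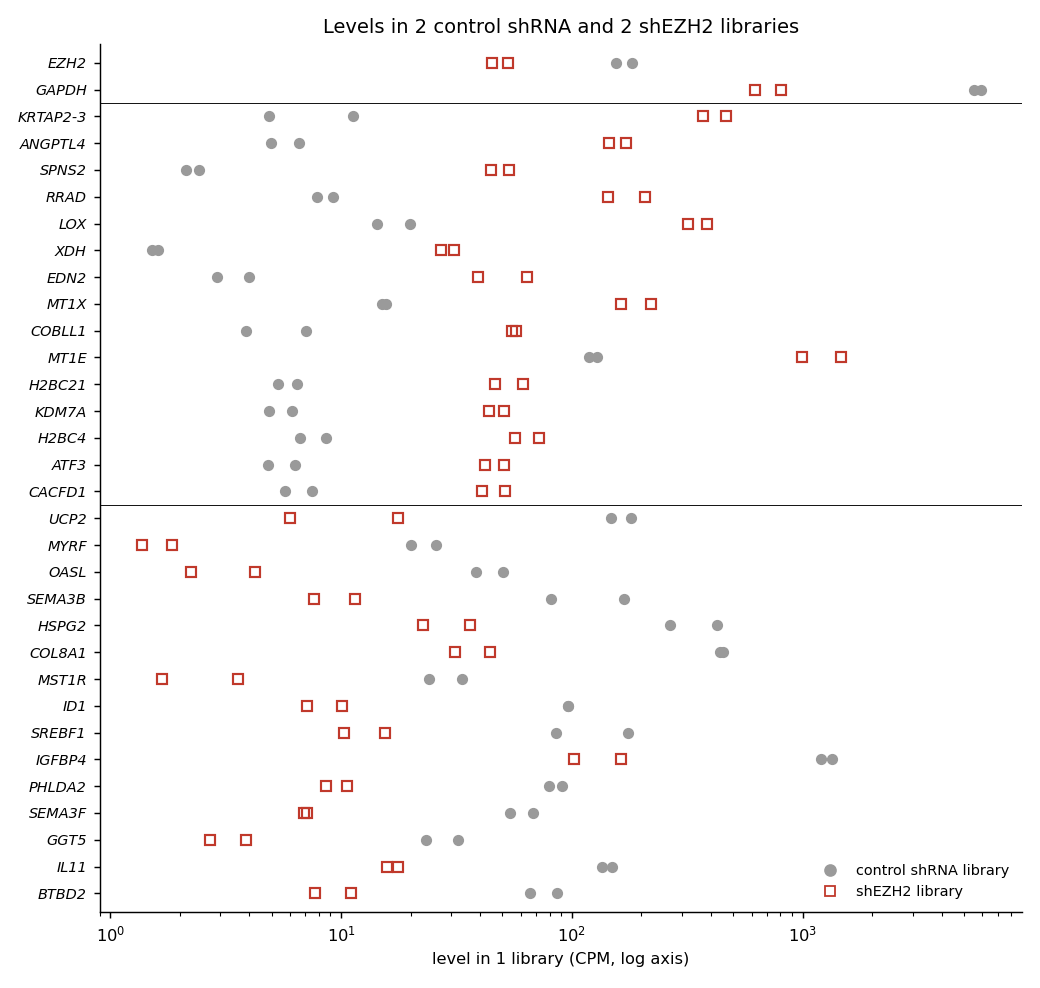
Level in CPM, on a log axis, of each library for EZH2, GAPDH and the 15 largest rises (middle block) and falls (lower block) among protein-coding genes with a mean of at least 200 counts. Filled gray circles are the 2 control shRNA libraries and open red squares the 2 shEZH2 libraries. The rises and falls were chosen only from genes in which these groups do not overlap. EZH2 and GAPDH were not chosen by that rule, and GAPDH was at 5539 and 5883 against 802 and 619.5 CPM.

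A few genes went from under 1 CPM in both control libraries to over 5 CPM in both shEZH2 libraries. There were 13 of these, 9 of them protein-coding, and 7 genes went the other way, 6 of them protein-coding. SERPINB2, an inhibitor of urokinase, was at 0.0538 and 0.182 against 6.91 and 6.86 CPM (log2 5.83 ± 0.48), with 23.7% of its stretches shared with other genes. Its change was 5.18 without control replicate 1 and 6.83 without control replicate 2. The antimicrobial peptide gene DEFB103A was at 0.215 and 0.0607 against 6.30 and 6.22 CPM (log2 5.39 ± 0.43, or 6.52 without control replicate 1), and its whole sequence is shared with DEFB103B, so the reads cannot be assigned between the copies. The meiotic gene SHOC1 rose by 4.43 ± 0.37, with 5.62 without control replicate 1, 3.84 without control replicate 2 and 3.66 with effective length as an offset. The germ cell gene TEX14 rose by 3.95 ± 0.40 (2.83 with that offset), the laminin chain LAMA2 by 3.81 ± 0.40, the actin regulator MTSS1 by 3.37 ± 0.35, spectrin SPTB by 4.20 ± 0.29 and the calcium pump ATP2A1 by 3.53 ± 0.37. Of the exon bases of MTSS1, SPTB and ATP2A1, 25.7%, 23.0% and 22.6% lie opposite a gene on the other strand. The chemokine receptor CCR3 rose by 3.29 ± 0.51, with 4.88 without control replicate 1 and 2.60 without control replicate 2. Among genes that fell below 1 CPM, the tight junction gene CLDN2 went from 9.95 and 6.79 to 0.380 and 0.519 CPM (log2 -4.18 ± 0.36) and the opsin OPN3 from 12.3 and 9.89 to 0.911 and 0.634 CPM (log2 -3.86 ± 0.28). SELENBP1 changed by -4.05 ± 0.41 (-3.46 without control replicate 1) and phospholipase PLCD1 by -2.84 ± 0.33, and with the effective length offset by -3.30 and -1.31. The sperm calcium channel CATSPER1 changed by -2.98 ± 0.39, with -3.83 without shEZH2 replicate 1 and -2.33 without shEZH2 replicate 2. MYO15B was at 14.6 and 6.67 CPM in control, at 0.532 CPM in shEZH2 replicate 1 and at 0 counts in replicate 2, so that no fold is given.

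Measured as a difference in CPM rather than a ratio, the largest falls began with GAPDH. GAPDH, the glycolytic enzyme often used as a reference gene, fell 8.04-fold, from 5539 and 5883 to 802 and 619.5 CPM (log2 -3.01 ± 0.14, edgeR adjusted p = 4.96e-07). The actin crosslinker FLNA fell from 5800 and 5398 to 2454 and 1503 CPM (log2 -1.501 ± 0.18), and vimentin (VIM), the intermediate filament of mesenchymal cells, from 3266 and 3560 to 1431 and 1282 CPM (log2 -1.33 ± 0.10). Of the exon bases of VIM, 24.6% lie opposite a gene on the other strand. In each of these 3 genes both shEZH2 libraries were below both controls. The receptor kinase AXL changed by -1.83 ± 0.15, the integrin chain ITGA3 by -1.55 ± 0.12 and the ribosomal stalk protein RPLP0 by -1.13 ± 0.11. HMGA1, an architectural chromatin protein, was at -1.01 ± 0.10 but at -0.52 after the GC and length correction, -0.88 without shEZH2 replicate 2 and -0.97 without control replicate 2. S100A6, a calcium-binding protein, was at -1.001 ± 0.13 and kept the call in 5 of 14 alternatives, with -0.58 after the correction, -0.80 without control replicate 1 and -0.90 without shEZH2 replicate 1.

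In the other direction, CCN2, a matricellular protein, rose from 249 and 305 to 1027 and 1455 CPM (log2 2.16 ± 0.16), MMP14, the membrane collagenase, from 424 and 467 to 1214 and 1506 CPM (log2 1.61 ± 0.12), and filamin C (FLNC) from 892 and 1032 to 2007 and 2192 CPM (log2 1.13 ± 0.10). The groups were apart in all 3, and replicate 2 was the higher shEZH2 library in each. The integrin chain ITGA6 was at 1.21 ± 0.10 and at 0.99 after the GC and length correction. Thrombospondin THBS1 was at 1.07 ± 0.11, with 0.80 after that correction, 0.97 without control replicate 1 and 0.98 without shEZH2 replicate 2. The complement inhibitor CD59 was at 1.00 ± 0.10 and lost the call in 6 of 14 alternatives, with 0.73 after the correction, 0.92 without control replicate 1 and 0.89 without shEZH2 replicate 2. The mitochondrial ribosomal RNA MT-RNR2 was at 1.04 ± 0.13, with 0.97 without control replicate 1 and 0.89 without shEZH2 replicate 2, and of the 13 protein-coding mitochondrial genes 0 were called.

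Among genes of DNA replication the calls went 1 way. Of 46 genes that license origins or work at the fork, 12 (26.1%) were called lower and 0 higher, 39 were below 0, and the list median was -0.57, beside -0.02 for all genes. GINS4, a subunit of the replicative helicase, fell from 74.7 and 72.8 to 20.4 and 10.2 CPM (log2 -2.29 ± 0.23). MCM6 fell from 133 and 133 to 52.0 and 31.8 CPM (log2 -1.68 ± 0.18), its partner MCM3 from 338 and 353 to 163 and 106 CPM (log2 -1.36 ± 0.17), and the polymerase subunits POLD2 and POLD1 by 1.86 ± 0.17 and 1.54 ± 0.17. TIMELESS, of the fork protection complex, changed by -1.51 ± 0.15. In GINS4, MCM6 and MCM3 shEZH2 replicate 2 was the lower of the knockdown libraries. PCNA, the sliding clamp, was at 187 and 185 against 121 and 90.3 CPM (log2 -0.82 ± 0.13) and was not called, though it was called at -1.04 without shEZH2 replicate 1.

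Of the enzymes that supply deoxynucleotides, 5 of 12 (41.7%) were called lower and 0 higher. Thymidine kinase TK1 fell from 238 and 236 to 60.6 and 40.5 CPM (log2 -2.24 ± 0.15), and thymidylate synthase TYMS from 325 and 378 to 153 and 111 CPM (log2 -1.41 ± 0.14), with 47.9% of the exon bases of TYMS opposite a gene on the other strand. RRM2, the regulated subunit of ribonucleotide reductase, fell from 372 and 433 to 163 and 88.0 CPM (log2 -1.69 ± 0.22), whereas RRM1, its catalytic subunit, was at 256.4 and 287.3 against 203 and 173 CPM (log2 -0.53 ± 0.10) and was not called. DUT, which removes dUTP, was at -1.04 ± 0.13, with -0.91 without control replicate 2 and -0.87 without shEZH2 replicate 2.

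The E2F transcription factors that act on these genes went both ways. Of 10 E2F and DP genes, 4 were called lower and 1 higher. E2F1 (GRCh38 chromosome 20, 33675477 to 33686385, minus strand) fell from 145 and 140 to 63.0 and 32.3 CPM (log2 -1.59 ± 0.23, edgeR adjusted p = 0.000172), E2F2 from 8.71 and 9.71 to 2.20 and 0.864 CPM (log2 -2.64 ± 0.32, with -3.40 without shEZH2 replicate 1 and -2.05 without shEZH2 replicate 2), E2F8 from 30.7 and 35.8 to 10.6 and 8.41 CPM (log2 -1.82 ± 0.15) and E2F5 from 6.46 and 7.95 to 2.81 and 1.73 CPM (log2 -1.68 ± 0.29). E2F1 and E2F2 are activators, E2F5 a pocket-protein-dependent repressor and E2F8 an atypical repressor. E2F7, the other atypical repressor, rose from 85.5 and 81.5 to 209 and 202 CPM (log2 1.298 ± 0.09). Among G1 regulators, cyclin D1 (CCND1) fell from 882 and 981 to 381 and 404 CPM (log2 -1.25 ± 0.10), while cyclin D2 (CCND2) rose from 0.377 and 0.303 to 3.49 and 4.15 CPM (log2 3.46 ± 0.40). CDK6, their kinase, was at 125 and 151 against 274 and 265 CPM (log2 0.97 ± 0.11), just under the 2-fold line and past it in 3 of 14 alternatives, with 1.12 without control replicate 2 and 1.01 without shEZH2 replicate 2. RBL2, a pocket protein that holds E2F targets silent in resting cells, was at 24.96 and 17.53 against 41.3 and 49.4 CPM (log2 1.09 ± 0.16), with 0.86 after the GC and length correction, 0.87 without control replicate 2 and 0.97 without shEZH2 replicate 2.

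Promoters of replication genes are known for E2F sites. The stretches that hold them are shown for E2F1, E2F2, the replication genes MCM6 and MCM3 and the deoxynucleotide gene TYMS, to give the letters behind the counts that follow. These genes were picked because they held a match, whereas RRM2, TK1, TIMELESS and POLD1, also called lower, held none before the start site. The sequences are from RefSeq (GRCh38.p14), 60 bases each on the strand of the gene, and capitals mark a match to TTTGGCGC, TTTCCCGC or TTTCGCGC on either strand, which can overlap one another.
E2F1 (chr20:33686386-33686445, minus strand): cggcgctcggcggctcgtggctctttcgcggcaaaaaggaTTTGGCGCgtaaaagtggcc
E2F2 (chr1:23531242-23531301, minus strand): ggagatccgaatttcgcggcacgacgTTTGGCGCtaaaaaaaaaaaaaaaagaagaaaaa
MCM6 (chr2:135876496-135876555, minus strand): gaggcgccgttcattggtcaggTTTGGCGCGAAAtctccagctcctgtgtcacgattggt
MCM3 (chr6:52284883-52284942, minus strand): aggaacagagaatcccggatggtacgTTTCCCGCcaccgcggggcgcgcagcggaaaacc
TYMS (chr18:657588-657647, plus strand): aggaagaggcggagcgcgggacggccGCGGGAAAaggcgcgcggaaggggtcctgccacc
In the window from 250 bases before to 50 after the start site, 510 of 11018 promoters of tested genes (4.63%) held such a match. The share was 18 of 39 (46.2%) for the replication list, 3 of the 9 list members called lower that had a promoter sequence, and 4.72% for all genes called lower. In the deoxynucleotide list it was 2 of 10, and 1 of the 4 called lower with a promoter sequence. A match describes letters only and says nothing of binding.

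Of 79 mitotic genes, 11 (13.9%) were called lower, beside 10.7% of all genes, and 1 higher, while 71 were below 0, with a median of -0.40 (-0.26 without control replicate 2). AURKB, the kinase of the chromosomal passenger complex, fell from 120 and 125 to 33.3 and 17.3 CPM (log2 -2.30 ± 0.22), and CDCA3, a trigger of mitotic entry, by 2.06 ± 0.16. PLK1, the polo-like kinase, fell from 166 and 195 to 62.7 and 52.6 CPM (log2 -1.65 ± 0.12), CDC20, the activator of the anaphase-promoting complex, from 367 and 436 to 151 and 137 CPM (log2 -1.48 ± 0.11) and cyclin B1 (CCNB1) from 323 and 396 to 156 and 141 CPM (log2 -1.28 ± 0.11). All shEZH2 libraries lay below all control libraries in these genes. The kinesins KIF20A and KIF23 changed by -1.64 ± 0.13 and -1.41 ± 0.12. The commonly used proliferation markers were not called, with MKI67 at 787 and 872 against 609 and 537 CPM (log2 -0.53 ± 0.11) and TOP2A at 877 and 1081 against 599 and 639 CPM (log2 -0.66 ± 0.11). FOXM1, the transcription factor of this gene group, was at 361 and 393 against 362 and 364 CPM (log2 -0.05 ± 0.09), with overlapping groups. Its partner B-MYB (MYBL2) was at 79.7 and 87.5 against 46.2 and 27.7 CPM (log2 -1.19 ± 0.18), with -0.74 after the GC and length correction and -0.84 without shEZH2 replicate 2. WEE1, the kinase that holds back mitosis, was the 1 member called higher (log2 1.02 ± 0.11), with 0.79 after that correction, 0.98 with the effective length offset, 0.96 without control replicate 1 and 0.93 without shEZH2 replicate 2. In the list of homologous recombination and Fanconi genes, FANCD2 (log2 -1.38 ± 0.14) and FANCF (log2 -1.40 ± 0.24) were called lower among 30 tested (6.67%, beside 10.7% of all genes), and 4 members after the correction.

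The cell cycle homology region (CHR) is the promoter element of mitotic genes, written TTTGAA, and its place is shown in capitals, matched on either strand, for 3 called genes with a match before the start site.
PLK1 (chr16:23678829-23678888, plus strand): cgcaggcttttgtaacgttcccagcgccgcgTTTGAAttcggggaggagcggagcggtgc
CDC20 (chr1:43358889-43358948, plus strand): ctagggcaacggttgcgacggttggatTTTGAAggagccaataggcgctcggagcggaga
KIF23 (chr15:69414267-69414326, plus strand): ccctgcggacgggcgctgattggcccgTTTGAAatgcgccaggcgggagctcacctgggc
These letters stood in 40 of 66 mitotic promoters (60.6%), in 5 of the 10 called lower and in 9.64% of all promoters. In all genes called lower the share was 8.15%.

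Histone genes of the replication-dependent clusters had more calls higher than lower. Their mRNAs normally end in a stem-loop and not in a poly(A) tail, and these libraries were made after selection on poly(A). Of 62 listed genes 27 were tested, 10 (37.0%) were called higher and 1 lower, and the median was 0.99. H2BC21 rose from 6.46 and 5.34 to 46.3 and 61.5 CPM (log2 3.19 ± 0.18), H2BC4 from 6.62 and 8.61 to 56.5 and 71.8 CPM (log2 3.08 ± 0.17), H2BC11 from 4.79 and 5.40 to 27.2 and 35.4 CPM (log2 2.62 ± 0.18) and H4C8 from 6.56 and 8.92 to 33.3 and 37.4 CPM (log2 2.20 ± 0.19). The groups were well apart in all 4 genes. H2BC15 rose by 2.29 ± 0.26, and H2AC18, whose sequence is identical to H2AC19, by 2.36 ± 0.24. The 1 call in the other direction, H2AC20, rested on levels near 1 CPM, at 1.45 and 1.03 against 0.380 and 0.173 CPM (log2 -2.20 ± 0.56), and was lost in 9 of 13 alternatives, including each of those that left out a library, with values from -2.80 to -1.68 over them and -1.91 after the GC and length correction. Of its stretches 23.4% occur in other genes, H2AC18 first among them. Of 25 other RNAs without poly(A) tails 5 were tested, and of them SNORD3A was called higher (log2 1.34 ± 0.17), though not in the fit of all 10 libraries, and it shares 92.9% of its stretches with other copies. The part of RNAs without poly(A) tails in the histone values was not tested.

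Interferon-stimulated genes are the antiviral effectors that cells switch on through the ISGF3 complex. Of 39 tested effectors, 13 (33.3%) were called lower and 0 higher, with a median of -0.76. OASL, an enhancer of RNA sensing, fell from 50.1 and 38.5 to 4.25 and 2.25 CPM (log2 -3.81 ± 0.24). IFIT1, which binds foreign RNA caps (GRCh38 chromosome 10, 89392546 to 89406487, plus strand), fell 7.34-fold, from 77.4 and 72.7 to 11.7 and 8.93 CPM (log2 -2.88 ± 0.14), its neighbor family member IFIT2 from 89.5 and 67.8 to 25.5 and 18.4 CPM (log2 -1.85 ± 0.16), and the ubiquitin-like modifier ISG15 from 93.7 and 67.1 to 25.1 and 26.2 CPM (log2 -1.65 ± 0.15). BST2, which tethers budding virus, fell by 2.24 ± 0.12, DDX60 by 1.83 ± 0.14 and IFI44 by 1.75 ± 0.17. In each of these genes control replicate 1 was the higher control, and both shEZH2 libraries were below both. IFIT3 was at -1.16 ± 0.12, and at -0.98 without control replicate 1.

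The RNA sensors and signalling genes upstream of interferon had 5 of 27 called lower and 0 higher at a list median of -0.34, which was -0.084 over the members with a mean of at least 50 counts. DHX58 fell from 9.74 and 7.52 to 2.28 and 2.13 CPM (log2 -1.97 ± 0.23) and RIGI from 61.3 and 43.7 to 21.9 and 13.3 CPM (log2 -1.60 ± 0.21), with 89.1% of the stretches of RIGI shared with another annotated gene. IFIH1 was at -1.18 ± 0.16, with -0.99 without control replicate 1 and -0.98 with the effective length offset. Of 17 genes for presentation on MHC class I, 2 (11.8%, beside 10.7% of all genes) were called lower and 0 higher. HLA-F, a nonclassical class I gene, fell from 2.58 and 3.03 to 0.532 and 0.346 CPM (log2 -2.69 ± 0.41, or -2.08 with that offset). The immunoproteasome subunit PSMB10 was at -1.48 ± 0.17, or -0.97 after the GC and length correction, and 48.6% of its stretches occur in another annotated gene. B2M, the invariant chain of class I molecules, was at 454 and 513 against 326 and 339 CPM (log2 -0.54 ± 0.09) and was not called.

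The interferon-stimulated response element (ISRE) was searched as GAAA, any 2 bases and GAAA on both strands, and is given in capitals for 4 of the called genes because most effectors called lower held it.
IFIT1 (chr10:89392495-89392554, plus strand): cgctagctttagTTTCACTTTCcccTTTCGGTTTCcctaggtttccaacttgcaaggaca
ISG15 (chr1:1013365-1013424, plus strand): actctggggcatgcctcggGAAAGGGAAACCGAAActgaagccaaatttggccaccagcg
IFI44 (chr1:78649729-78649788, plus strand): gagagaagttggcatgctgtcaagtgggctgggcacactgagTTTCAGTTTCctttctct
BST2 (chr19:17405720-17405779, minus strand): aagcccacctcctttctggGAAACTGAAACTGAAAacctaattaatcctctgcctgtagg
It stood in 22 of 30 promoters of effectors (73.3%), in 9 of the 10 effectors called lower with a promoter sequence (90.0%) and in 304 of all 11018 promoters (2.76%). Its share in all genes called lower was 3.52%. In ISG15 and BST2 the matches overlap.

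**Figure D3:**
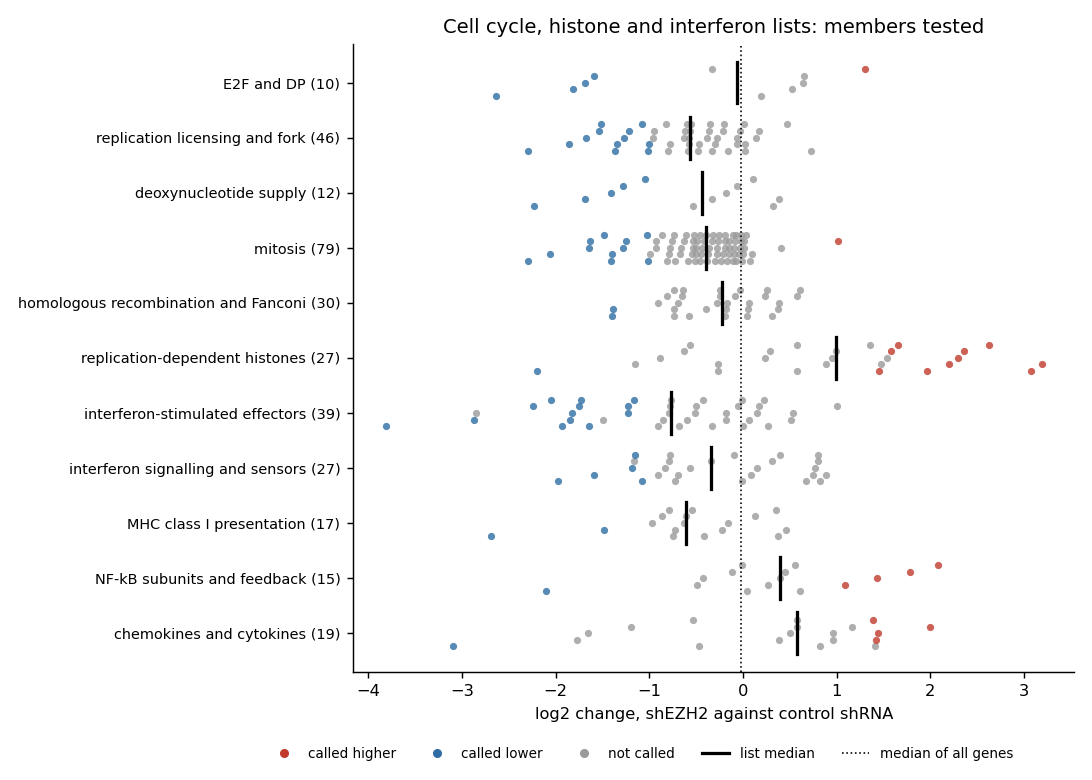
Log2 change in shEZH2 against control shRNA for every tested member of 11 lists, 1 point a gene, with the number tested in brackets. Red and blue points were called higher and lower, gray points were not called, black ticks are list medians and the dotted line is the median of all genes (-0.02). Histone genes lie mostly to the right of it (median 0.99), and replication genes (-0.57) and interferon effectors (-0.76) mostly to the left.

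Of 15 NF-kB subunits and feedback genes, 4 (26.7%) were called higher and 1 lower, at a median of 0.40. TRAF1, an adaptor at TNF receptors, rose from 14.1 and 15.9 to 62.8 and 64.3 CPM (log2 2.08 ± 0.11), and the deubiquitinases TNFAIP3 and CYLD, which shut the pathway off, by 1.78 ± 0.17 and 1.43 ± 0.09. BCL3, a nuclear inhibitor-kappa-B protein, fell from 34.8 and 17.5 to 5.92 and 6.28 CPM (log2 -2.10 ± 0.29), with -1.52 without control replicate 1 and -1.46 after the GC and length correction. Of 19 chemokines and cytokines, 4 were called higher and 1, IL11, lower. IL24 rose from 18.7 and 32.1 to 62.9 and 72.7 CPM (log2 1.42 ± 0.20), with 41.6% of its exon bases covered by a gene on the opposite strand. CXCL16 rose from 0.646 and 0.849 to 2.73 and 3.23 CPM (log2 2.00 ± 0.33), or 1.49 and not called with the effective length offset, and CSF2 from 3.71 and 1.82 to 7.37 and 7.84 CPM (log2 1.45 ± 0.33), a call lost without control replicate 2 (1.04) and without shEZH2 replicate 2 (1.41), and a change of 2.05 without control replicate 1.

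Of 27 genes of the TGF-beta and BMP pathway, 6 were called higher and 5 lower, at a median of 0.43, and 5 and 4 at 0.17 after the GC and length correction. On the TGF-beta side, LTBP1, which stores the ligand in the matrix, rose from 14.7 and 14.1 to 62.3 and 70.5 CPM (log2 2.21 ± 0.12), and the feedback inhibitor SMAD7 from 8.71 and 6.98 to 22.2 and 23.9 CPM (log2 1.55 ± 0.16). The receptor TGFBR1 was at 74.6 and 62.2 against 151 and 179 CPM (log2 1.27 ± 0.12), or 0.98 after the GC and length correction. ID1 and ID3, targets of BMP signals, fell from 96.3 and 95.7 to 7.14 and 10.1 CPM and from 31.2 and 32.8 to 4.63 and 6.97 CPM, changes of -3.46 ± 0.18 and -2.44 ± 0.25. TGFB1I1, a focal adhesion adaptor, changed by -2.39 ± 0.17.

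Collagens moved in both directions, with more calls higher. Of 23 tested, 8 (34.8%) were called higher and 3 lower, at a median of 0.61 that went to 0.20 without shEZH2 replicate 2. COL5A2 rose from 1.45 and 2.24 to 9.42 and 9.39 CPM (log2 2.35 ± 0.26), COL17A1, the transmembrane collagen of hemidesmosomes, from 43.0 and 40.3 to 117 and 136 CPM (log2 1.60 ± 0.12), and COL1A1 from 20.7 and 17.4 to 43.8 and 62.9 CPM (log2 1.49 ± 0.18). Against these rises, COL8A1 fell 11.9-fold as given above, COL13A1 fell by 1.15 ± 0.11 and COL9A2 changed by -2.13 ± 0.36 (-1.52 without control replicate 1). Among enzymes that modify collagen, LOX rose and its paralog LOXL4 fell from 238 and 115 to 63.6 and 46.3 CPM (log2 -1.69 ± 0.27, or -1.07 without control replicate 1). The lysyl hydroxylase PLOD2 was at 1.22 ± 0.09, and at 0.91 after the GC and length correction.

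Matrix glycoproteins and basement membrane genes had calls in both directions. Tenascin TNC, a glycoprotein of wound and tumor stroma, rose from 14.4 and 23.2 to 81.6 and 90.5 CPM (log2 2.20 ± 0.18), within a list of 19 genes of which 5 were called higher and 2 lower, and 3 and 2 after the GC and length correction. The basement membrane proteoglycans HSPG2 and AGRN were the 2 called lower, AGRN from 672 and 486 to 214 and 171 CPM (log2 -1.59 ± 0.15). The laminin chains LAMA5 and LAMB2, of the same membrane, fell from 544 and 305 to 57.6 and 47.2 CPM (log2 -3.02 ± 0.23) and from 243 and 190 to 85.6 and 71.4 CPM (log2 -1.47 ± 0.13, or -0.96 with the effective length offset). Fibronectin FN1 was at 201 and 188 against 391 and 364 CPM (log2 0.95 ± 0.10) and was not called, though it was at 1.02 and called without shEZH2 replicate 2. Of 22 integrin and laminin genes, 6 were called higher and 4 lower, and 2 and 4 after the GC and length correction. These counts leave out the laminin chain LAMA2, which was not on the list and was called higher at 3.81 ± 0.40. ITGB2, the leukocyte beta chain, rose from 5.38 and 5.52 to 16.02 and 22.42 CPM (log2 1.83 ± 0.17), the vitronectin receptor chain ITGB3 was at 1.34 ± 0.22 (0.98 without shEZH2 replicate 2) and its partner ITGAV at 1.29 ± 0.10 (0.86 after the correction). Of the stretches of ITGB3, 40.2% occur in another annotated gene.

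Proteases of the matrix had 8 of 24 genes (33.3%) called higher and 1 lower. ADAMTS6 rose from 8.71 and 17.4 to 74.3 and 74.9 CPM (log2 2.53 ± 0.23), the sheddases ADAM19 and ADAM12 by 1.97 ± 0.16 and 2.51 ± 0.35, tissue plasminogen activator PLAT by 1.13 ± 0.12 and MMP14 as given above. The interstitial collagenase MMP1 was at 0.592 and 2.06 against 5.32 and 7.78 CPM (log2 2.33 ± 0.48), a call lost without shEZH2 replicate 2 (2.03), with 1.67 without control replicate 1 and 3.47 without control replicate 2. ADAM15 was the 1 gene called lower, at 233 and 239 against 88.6 and 91.8 CPM (log2 -1.39 ± 0.09), or -0.95 after the GC and length correction. Serpins that restrain such proteases had 4 of 12 called higher, SERPINB7 (log2 2.54 ± 0.17) among them, and SERPINB1 called lower (log2 -1.19 ± 0.12). The semaphorins, plexins and neuropilins, cues and receptors of guidance, had 7 of 29 called lower and 4 higher. SEMA6B fell from 38.6 and 33.2 to 4.78 and 5.65 CPM (log2 -2.77 ± 0.20) alongside SEMA3B and SEMA3F, while SEMA7A, a membrane-anchored semaphorin that binds integrins, rose from 155 and 185 to 450 and 560 CPM (log2 1.57 ± 0.12).

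Of 24 genes of epithelial junctions, 5 were called higher and 2 lower, at a median of 0.62 (0.37 without shEZH2 replicate 2). These counts leave out the tight junction gene CLDN2, which was not on the list and was called lower at -4.18 ± 0.36. The claudins CLDN1 and CLDN4 rose from 4.09 and 3.82 to 25.5 and 28.2 CPM (log2 2.76 ± 0.15) and from 193 and 170 to 449 and 609 CPM (log2 1.54 ± 0.14), and the epithelial transcription factor GRHL1 by 3.92 ± 0.32 from 0.753 and 1.21 CPM. CLDN6, a claudin of fetal epithelium, was at 0.0538 CPM and 0 counts in control against 1.97 and 2.88 CPM (called higher; no fold is given). CLDN7 fell by 1.68 ± 0.24 and the splicing regulator ESRP2 by 1.82 ± 0.18. E-cadherin (CDH1) was at 0.861 and 0.182 against 2.43 and 2.65 CPM (log2 2.23 ± 0.50), a low level whose call was lost without control replicate 2 (1.56) and without shEZH2 replicate 2 (2.17), and whose change was 3.75 without control replicate 1. N-cadherin (CDH2), the mesenchymal counterpart, was at 0.484 and 0.243 against 1.52 and 2.13 CPM (log2 2.30 ± 0.47), lost without control replicate 2 (1.92) and without shEZH2 replicate 2 (2.03) and at 2.88 without control replicate 1. These low-count genes fall outside the rule for named genes and are given because they define their lists. ZEB1, a repressor of E-cadherin, was at 0.60 ± 0.11 and not called, and the actin-binding TAGLN fell by 2.75 ± 0.26, with 65.5% of its stretches in another annotated gene and 34.1% of its exon bases opposite a gene on the other strand. Of 12 keratins, 2 were called higher and 2 lower. KRT7 fell from 936 and 813 to 207 and 289 CPM (log2 -1.82 ± 0.16), KRT19 was at -1.40 ± 0.12 (-0.87 after the GC and length correction) and KRT15 rose from 6.13 and 5.70 to 14.6 and 19.4 CPM (log2 1.53 ± 0.18).

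Among signalling genes, the EGFR ligand amphiregulin (AREG) rose from 52.3 and 44.3 to 129 and 137 CPM (log2 1.46 ± 0.11). The phosphatases that switch off MAP kinases went in opposite directions, with DUSP5 at 79.9 and 78.1 against 271 and 313 CPM (log2 1.89 ± 0.10), DUSP1 at 1.51 ± 0.21 and DUSP4 at 416 and 331 against 140 and 103 CPM (log2 -1.63 ± 0.15). The list of MAPK output and feedback had 4 of 24 called in each direction, PHLDA1 (log2 -1.74 ± 0.10) among the lower ones. The Notch list had 4 of 14 called lower and 0 higher, and 2 lower and 1 higher after the GC and length correction. NOTCH3 fell from 3.39 and 3.46 to 0.456 and 0.922 CPM (log2 -2.26 ± 0.38, or -2.88 without shEZH2 replicate 2), and the glycosyltransferase LFNG, which tunes Notch receptors, from 25.2 and 20.7 to 4.25 and 6.11 CPM (log2 -2.13 ± 0.25). Sphingosine 1-phosphate genes had 4 of 9 called higher and 1 lower. Besides SPNS2, the kinase SPHK1 that makes the lipid rose from 10.9 and 14.2 to 37.97 and 39.02 CPM (log2 1.62 ± 0.15) and its receptor S1PR1 from 3.60 and 4.06 to 13.8 and 8.59 CPM (log2 1.54 ± 0.27). S1PR5 had 1.29 and 0.789 CPM in control and 0 counts in both shEZH2 libraries, which allows up to 0.227 and 0.170 CPM before TMM scaling. The call of S1PR5 was lost without control replicate 1 and without shEZH2 replicate 2. The lipid raft proteins FLOT1 and CAV1 fell from 261 and 249 to 57.7 and 44.9 CPM (log2 -2.32 ± 0.12) and from 1436 and 1447 to 617 and 575 CPM (log2 -1.27 ± 0.09).

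Apart from GAPDH, few glycolytic genes were called. Of 21 glycolytic genes, GAPDH and PFKL were called lower (9.52%, beside 10.7% of all genes) and 0 higher, 16 were below 0 and the median was -0.51. PFKL, a phosphofructokinase, was at 143 and 121 against 56.3 and 48.4 CPM (log2 -1.34 ± 0.12), or -0.98 after the GC and length correction. Lactate dehydrogenase LDHA was at 2409 and 2407 against 1644 and 1829 CPM (log2 -0.47 ± 0.11), pyruvate kinase PKM at -0.63 ± 0.10 and the glucose transporter SLC2A1 at -0.86 ± 0.10, none of them called. Genes known as targets of the hypoxia factor HIF, which include SLC2A1, had 7 of 23 (30.4%) called higher and 0 lower, with 20 above 0 and a median of 0.48. This list left out GAPDH and PFKL, both called lower, which were counted under glycolysis only, so the count of 0 lower depends on that split. Besides ANGPTL4 and LOX, MXI1 rose from 15.1 and 11.3 to 29.3 and 37.6 CPM (log2 1.34 ± 0.17), and PDK1, which closes pyruvate off from mitochondria, from 35.6 and 31.3 to 81.6 and 97.9 CPM (log2 1.42 ± 0.12, or 0.99 and not called after the GC and length correction).

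Mitochondrial carriers of the inner membrane had 5 of 22 (22.7%) called lower and 0 higher. The oxoglutarate carrier SLC25A11 fell from 54.9 and 50.7 to 19.1 and 9.34 CPM (log2 -1.92 ± 0.25). The citrate carrier SLC25A1 and the dicarboxylate carrier SLC25A10 were at -1.36 ± 0.18 and -1.42 ± 0.19, and at -0.74 and -0.84 after the GC and length correction, and 59.3% of the stretches of SLC25A10 occur in another annotated gene. Nuclear genes of oxidative phosphorylation had 3 of 39 called lower (7.69%, beside 10.7% of all genes). Of the pentose phosphate enzymes, which feed NADPH and ribose, TKT fell from 413 and 395 to 177 and 154 CPM (log2 -1.29 ± 0.10).

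Lipid synthesis was measured against control libraries that differed from each other. Of 28 genes of cholesterol and fatty acid synthesis, 6 were called lower and 0 higher. SREBF1, the master transcription factor of fatty acid synthesis, was at 174 and 85.7 against 15.6 and 10.3 CPM. Stearoyl-CoA desaturase SCD was at 572 and 151 against 88.5 and 96.8 CPM (log2 -1.96 ± 0.43), and lost the call without control replicate 1 (-0.70), without either shEZH2 library (-1.90 and -2.02) and in DESeq2 (-1.94), while it was at -2.62 without control replicate 2. For both genes control replicate 1 stood well above replicate 2, and both shEZH2 libraries below either. Acetyl-CoA carboxylase ACACA fell from 132 and 100.5 to 51.8 and 43.5 CPM (log2 -1.29 ± 0.14). HMGCS1, of the cholesterol branch, was at 56.4 and 36.3 against 87.1 and 94.3 CPM (log2 0.97 ± 0.17) and was not called, though it was called at 1.32 without control replicate 1 and at 1.02 without shEZH2 replicate 1.

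Of 75 cytosolic ribosomal protein genes, 74 were below 0, 18 (24.0%) were called lower and 0 higher, the median was -0.76 and the range -1.81 to 0.07. After the GC and length correction 15 were called lower, and the median was -0.66. RPLP0 fell from 2118 and 2360 to 1104 and 944 CPM, with 22.8% of its stretches in other genes, and RPS2 was at 1833 and 1819 against 914 and 725 CPM (log2 -1.16 ± 0.12, or -0.78 after the correction and -0.99 without shEZH2 replicate 2), with 63.2% shared. Because ribosomal proteins have many processed pseudogenes, the split of reads among copies is uncertain. The small nucleolar RNA host genes, a family looked at after its values were seen, share with them a terminal pyrimidine tract that ties their fate to growth signals, and 10 of 26 were called lower and 2 higher at a median of -0.70. SNHG8 fell from 31.2 and 40.6 to 10.2 and 6.97 CPM (log2 -2.08 ± 0.20), with 37.6% of its exon bases opposite another gene. SNHG4 changed by -2.03 ± 0.26 (-2.64 without shEZH2 replicate 1), SNHG3 fell by 1.72 ± 0.22, and GAS5 was at -1.05 ± 0.17, with -0.81 without control replicate 2, -0.83 without shEZH2 replicate 2 and -0.98 with the effective length offset. Genes with EIF or EEF symbols, chosen in the same way, had 2 of 85 called in each direction, at a median of -0.38. The 2 called higher, EIF2AK3 and EIF2AK4, encode kinases and not translation factors. EEF1A2 and EIF1 were called lower, so no initiation or elongation factor was called higher.

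**Figure D4:**
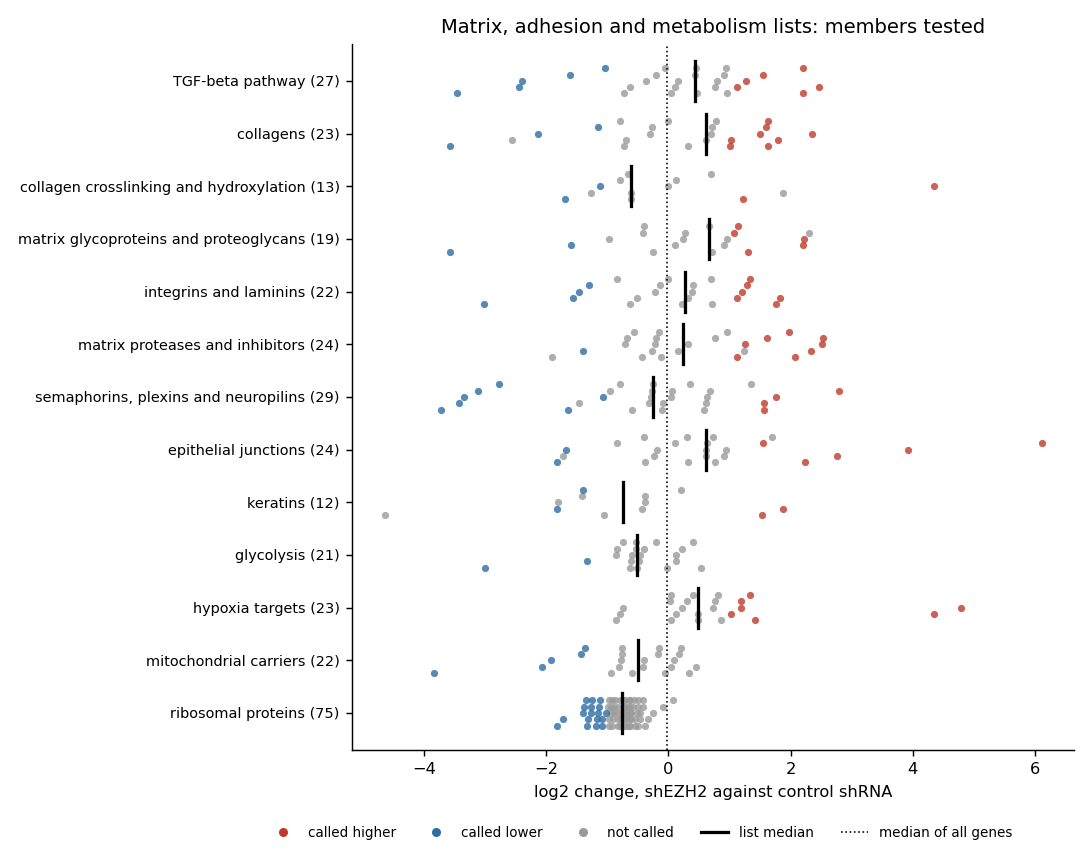
Log2 change in shEZH2 against control shRNA for every tested member of 13 lists, 1 point a gene, with the number tested in brackets. Colors, ticks and dotted line are as in the plot of cell cycle and interferon lists. Ribosomal protein genes form a tight group at a median of -0.76, while collagens range from -3.57 to 2.35.

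Metallothioneins, small proteins that bind zinc and copper and are induced by metals and stress, were mostly called higher. The family was chosen after its values were seen, and 4 of 5 tested members were called higher. MT2A went from 619 and 650 to 1735 and 2573 CPM (log2 1.76 ± 0.15), MT1E from 119 and 128 to 993 and 1457 CPM (log2 3.31 ± 0.16), MT1X from 15.71 and 14.98 to 163 and 219 CPM (log2 3.64 ± 0.15) and MT1F from 1.24 and 1.40 to 5.85 and 8.30 CPM (log2 2.43 ± 0.30). In each the controls lay close together and shEZH2 replicate 2 was the higher knockdown library.

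Calls went both ways within the stress lists. Heme oxygenase HMOX1 rose from 14.6 and 12.1 to 63.3 and 80.0 CPM (log2 2.43 ± 0.15), while the NRF2 list as a whole had 3 of 17 called in each direction, TKT among the lower. In the unfolded protein and integrated stress list, 5 of 24 were called higher and 4 lower. The kinase EIF2AK3 (PERK) rose from 15.6 and 13.9 to 33.3 and 33.4 CPM (log2 1.18 ± 0.12), and the lipoprotein receptor VLDLR, an ATF4 target, by 2.16 ± 0.13, whereas the chaperone PDIA4 fell from 389 and 372 to 131 and 106 CPM (log2 -1.68 ± 0.11). DDIT3 (CHOP) was at 16.2 and 16.1 against 9.42 and 5.42 CPM (log2 -1.15 ± 0.22, or -0.77 without shEZH2 replicate 2), and 31.6% of its exon bases lie opposite another gene.

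In the BCL2 family, the survival gene BCL2L1 fell from 710 and 654 to 237 and 221 CPM (log2 -1.58 ± 0.09), with 41.3% of its exon bases covered by a gene on the opposite strand. The BH3-only killers BIK and BMF rose from 1.88 and 1.09 to 6.46 and 10.9 CPM (log2 2.54 ± 0.34) and from 2.74 and 1.27 to 6.68 and 8.53 CPM (log2 1.91 ± 0.33, or 2.57 without control replicate 1 for BMF). Of 15 family members, 2 were called in each direction. Among caspases and death receptors, the caspase-8 inhibitor CFLAR rose from 62.5 and 59.3 to 156 and 175 CPM (log2 1.44 ± 0.10) and the inflammatory caspase CASP4 by 1.82 ± 0.16. Targets of p53 had 2 of 28 called higher and 3 lower (7.14% and 10.7%, beside 7.52% and 10.7% of all genes), and 4 in each direction after the GC and length correction. CDKN1A (p21) was at 92.8 and 79.3 against 104 and 114 CPM (log2 0.34 ± 0.10) and was not called, CCNG1 fell from 71.6 and 66.8 to 18.1 and 15.3 CPM (log2 -2.06 ± 0.12) and GDF15 by 3.10 ± 0.46, with -4.09 without shEZH2 replicate 1 and -2.39 without shEZH2 replicate 2.

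Classic targets of Polycomb silencing were mostly too low to test. Of 39 HOX genes 10 were tested, and HOXD1 alone was called, rising from 2.90 and 2.55 to 13.3 and 13.1 CPM (log2 2.27 ± 0.21). Of 114 developmental transcription factors 38 were tested, 5 (13.2%) were called higher and 9 (23.7%) lower, and 6 and 5 after the GC and length correction, so that the balance between directions depended on it. SOX4 rose from 1.72 and 1.03 to 6.53 and 9.45 CPM (log2 2.53 ± 0.32), HHEX from 5.22 and 4.91 to 15.04 and 17.58 CPM (log2 1.69 ± 0.18) and GLI3, the hedgehog pathway repressor, by 1.68 ± 0.21. PITX1, a homeobox factor of the hind limb, fell from 103 and 79.0 to 15.79 and 15.96 CPM (log2 -2.52 ± 0.15), and FOXA2 by 1.74 ± 0.15, with PITX1 at -1.88 after the correction. Of 53 clustered protocadherins 19 were tested and 0 were called.

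Of 7 DNA methylation genes, 2 were called in each direction. The de novo methyltransferase DNMT3B rose from 13.8 and 11.5 to 45.0 and 59.6 CPM (log2 2.05 ± 0.16), and TET3, which oxidizes methylcytosine, from 40.8 and 41.3 to 177 and 194 CPM (log2 2.18 ± 0.10). The maintenance enzyme DNMT1 was at 515 and 542 against 304 and 194 CPM (log2 -1.09 ± 0.16, with -0.79 without shEZH2 replicate 2 and -0.97 with the effective length offset). Its partner UHRF1 was at -1.04 ± 0.13, with -0.82 without shEZH2 replicate 2, -0.99 with the effective length offset and -0.87 after the GC and length correction, and 25.7% of its stretches occur elsewhere in the annotation. DNMT1 was lower in shEZH2 replicate 2 than in replicate 1.

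Among long noncoding RNAs with enough reads, UCA1, an oncofetal transcript, fell from 379 and 334 to 90.5 and 57.3 CPM (log2 -2.27 ± 0.21) and NOP14-AS1 by 1.84 ± 0.27. LINC00511 rose from 14.6 and 11.6 to 35.7 and 40.0 CPM (log2 1.53 ± 0.16), SFTA1P by 1.44 ± 0.14 and PINK1-AS by 1.29 ± 0.17. LINC01128 was at 1.01 ± 0.14, with 0.83 after the GC and length correction, 0.80 with the effective length offset, 0.92 without control replicate 1 and 0.94 without shEZH2 replicate 1. The library kit keeps strand, but the sources used here do not say whether counting did, and 42.9% of the exon bases of PINK1-AS and 26.1% of those of UCA1 lie opposite another gene, so their reads may belong to either.

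The hairpin removes EZH2 RNA, whereas GSK126 blocks its catalytic site, and the difference between both effects was tested in 1 model of all 10 libraries. The hairpin contrast and the drug contrast share no library. Of 15773 genes, 2176 (13.8%) were called for the difference, 809 (5.13%) with the higher effect in shEZH2 and 1367 (8.67%) with the lower. Among the 2803 genes called in shEZH2, 1935 (69.0%) were also called for the difference, 677 of the 1156 higher genes (58.6%) and 1258 of the 1647 lower genes (76.4%). The 2803 genes were chosen for a large hairpin change, and that change is itself part of the difference. This overlap therefore follows in part from the choice and is no independent result. With 1 library left out, the smallest count for the difference was 1305 genes, without shEZH2 replicate 2. The model did not pair drug and solvent libraries by replicate, and with a replicate block 2405 genes were called for the difference.

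EZH2 RNA measured 123 and 126 CPM with DMSO against 133 and 142 CPM with the drug (log2 0.14 ± 0.12), and the difference from the hairpin was -1.92 ± 0.17. GAPDH measured 4110 and 5397 CPM with DMSO against 3848 and 5054 CPM with the drug (log2 -0.09 ± 0.17), a difference of -2.90 ± 0.24 from the hairpin effect. IFIT1 was at 59.6 and 49.9 against 56.0 and 41.2 CPM with the drug (log2 -0.17 ± 0.16, difference -2.69 ± 0.24) and E2F1 at 83.74 and 108.5 against 102 and 118 CPM (log2 0.20 ± 0.22, difference -1.78 ± 0.32). All 4 differences were called. H2BC4 measured 3.16 and 3.96 CPM with DMSO against 1.35 and 1.71 CPM with the drug (log2 -1.21 ± 0.26), below the solvent libraries where the hairpin libraries were above their controls, and the difference was 4.30 ± 0.32. Some genes that the hairpin raised were also higher in both drug libraries than in both solvent libraries. CLDN1 was at 9.68 and 7.86 against 24.7 and 17.2 CPM (log2 1.26 ± 0.18) and COBLL1 likewise above its solvent libraries (log2 1.06 ± 0.22), each with a hairpin effect that was called as larger by 1.52 ± 0.27 and 2.32 ± 0.31. For TNC, at 13.7 and 17.4 against 30.5 and 41.9 CPM (log2 1.22 ± 0.21), and CCND2, at 0.852 and 0.735 against 2.99 and 3.18 CPM (log2 1.95 ± 0.32), the differences of 0.99 ± 0.30 and 1.53 ± 0.51 were not called, with adjusted p of 0.0210 and 0.0329 in edgeR.

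**Figure D5:**
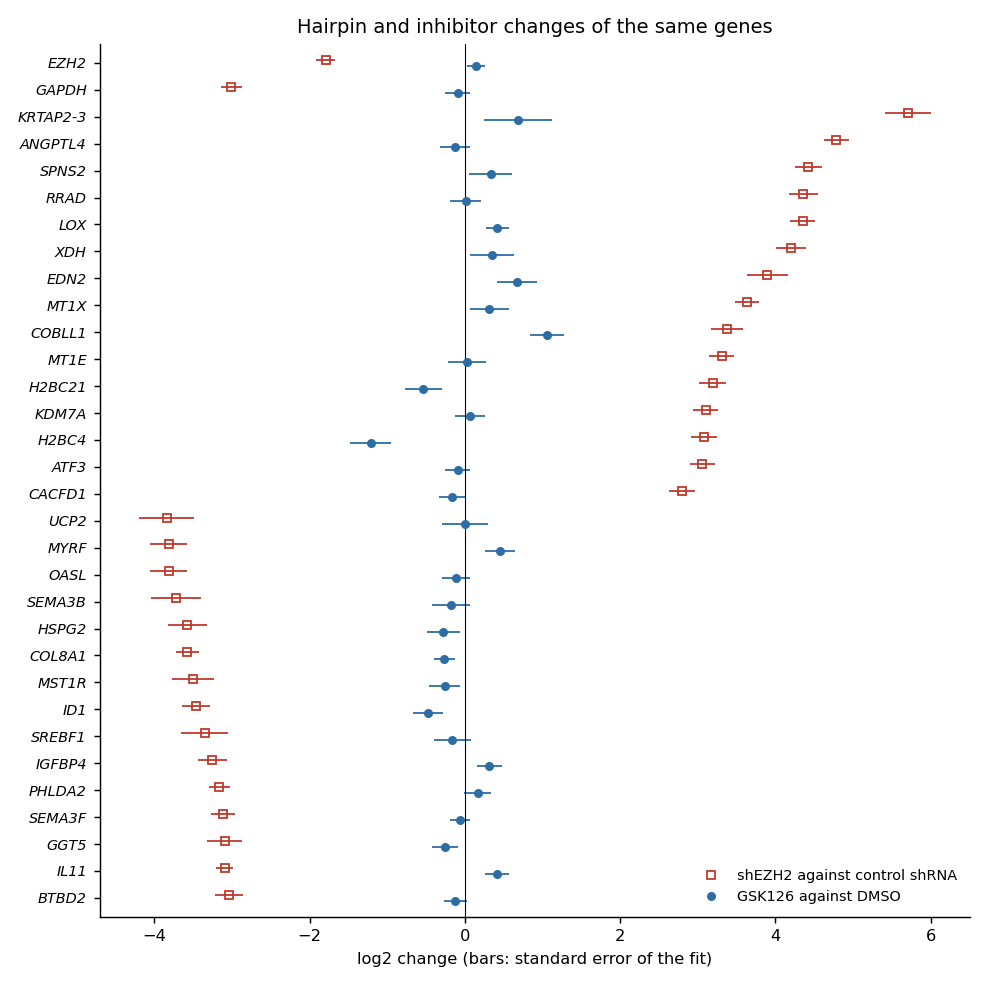
Log2 change with its standard error for EZH2, GAPDH and the 15 largest rises and falls of the hairpin, in shEZH2 against control shRNA (open red squares, fit of 6 libraries) and in GSK126 against DMSO (filled blue circles, fit of 10 libraries). The inhibitor values stay between -1.21 (H2BC4) and 1.06 (COBLL1), while the hairpin values run from -3.84 to 5.71.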

How the data were processed

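RNA-seq libraries were made by the authors from poly(A)-selected RNA with a strand-specific kit. Per the labels and the study's methods, reads were mapped to GRCh38 and summed per gene with RSEM, and the submitters' processing notes list RSEM 1.3.1 and STAR 2.7.2b. The deposited files hold expected counts, estimated by the authors with multi-mapped reads divided between genes, beside TPM and effective lengths. Of the deposited columns, expected counts were tested, TPM served as a per-length level only and effective length only as an offset. The setting for strand in counting is not given in the sources used here.

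Of 62703 gene identifiers 62625 (99.876%) were found in GENCODE 44, which gave symbols, GC content and lengths. Expected counts were rounded to whole numbers, and the 2 shEZH2, 2 control shRNA and 2 shE2F1 libraries were fitted with edgeR 4.0.16 (R 4.3.3, limma 3.58.1) after filtering of low counts and TMM scaling, with quasi-likelihood tests and Benjamini-Hochberg adjustment over all genes tested. Called genes had to pass 2-fold as well as an adjusted p under 0.01. The difference from GSK126 was an interaction contrast in 1 fit of all 10 libraries. Fold changes are those of the fit, and CPM values are after TMM scaling. On simulated counts 99 of 100 genes changed by 1.5 on the log2 scale and 100 of 100 changed by 2 were recovered, with 8 false calls among 14973 genes. The changes were set only in genes above a floor of mean CPM, and counts were drawn with the fitted spread and without a trend in GC content. Recovery of genes at low levels was therefore not measured.

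The members and gene lists were chosen with earlier results of these data known. Named were fixed genes of PRC2 and the cell cycle, the 15 largest called changes per direction among protein-coding genes with a mean of at least 200 counts and groups that did not overlap, the 10 largest per direction by difference in CPM, up to 6 called members per list and direction with a mean of at least 50 counts, members that define a list, switched genes and up to 5 long noncoding RNAs per direction. The metallothionein and small nucleolar RNA host gene families and the genes with EIF or EEF symbols were added after their values were seen. Alternatives were DESeq2 1.42.0, its size factors, other filters, other libraries in the fit, a replicate block, an effective length offset, splines of 5 degrees of freedom that took GC content and length out of each library, other thresholds, and each library left out. Among the knockdown libraries, those of the same replicate number deviated together with correlations of 0.0374, 0.016 and 0.0951, so they were not treated as pairs. The DMSO and GSK126 libraries had no such check, and the main fit of all 10 libraries left them unpaired as well. Standard errors of the drug effect therefore include any spread shared by replicate number. GAPDH, for example, was at 4110 and 5397 CPM with DMSO and at 3848 and 5054 CPM with GSK126. Limits for 0 counts stand for 3 counts over the total counts of a library, without TMM scaling, and cover counting error only. Gene overlap was measured as shared 50-base stretches and as exon bases under another gene. The hairpin sequences are not shown, and some genes that the rule names are not reported here.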

Additional observations from a re-analysis of the deposited data

Results flagged for a closer look

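These results are given because the effect of the hairpin differed from the effect of GSK126 in the interaction test of edgeR, at an adjusted p under 0.01 and more than 2-fold. In all, 2176 genes met this. Listed are the largest differences in each direction among named genes that were called in shEZH2 and had a mean of at least 200 counts. They were thus chosen partly for a large hairpin change, which is itself part of the difference. Named genes with fewer counts are left out, for example TEX14 at 4.65 and SELENBP1 at -4.26. The differences, as the log2 change in shEZH2 minus the log2 change in GSK126, were 5.03 for KRTAP2-3, 4.93 for ANGPTL4, 4.36 for RRAD, 4.30 for H2BC4 and 4.10 for SPNS2. On the other side they were -4.25 for MYRF, -3.82 for UCP2, -3.68 for OASL, -3.56 for IGFBP4 and -3.53 for SEMA3B. The arms also differed in virus, selection and solvent, which cannot be told apart from hairpin and drug here. Groups of 2 libraries were too small to be searched for outliers.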

How the results depend on the processing

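The count of 2803 genes called went to 8550 at an adjusted p under 0.05 and to 6413 at 0.01 without the fold requirement, and to 802 when the test itself was against a 2-fold change. It ranged from 2015 to 2923 with 1 library left out. The 4 compared libraries fitted alone, without shE2F1, gave 2594 calls among 14591 genes tested. The count for the difference from GSK126, 2176, went to 5780 at an adjusted p under 0.05 without the fold, and ranged from 1305 (without shEZH2 replicate 2) to 2414 with 1 library left out. With a replicate block the counts were 2788 and 2405, and the block by itself ended the call of 1 named gene, S100A6. EZH2 ranged from -1.91 to -1.66 with 1 library left out and kept its call in each of the 14 alternative fits. SUZ12 reversed to -0.10 with the GC and length correction, -0.10 with that correction and the replicate block, and -0.032 without control shRNA replicate 1, in a range up to 0.19 (without control shRNA replicate 2) with 1 library left out. FOXM1 reversed to 0.21, 0.21 with the block as well, and 0.015 without control shRNA replicate 2, in a range from -0.12 (without control shRNA replicate 1). Neither was called, and no called gene among those named reversed. Of 218 named genes that were called, 176 kept the call in every alternative fit and 42 lost it in 1 or more, 25 with the GC and length correction, 22 without shEZH2 replicate 2, 11 with the effective length offset, 12 without control shRNA replicate 1 and 4 in DESeq2. The cause was not tested. Depth limited genes under 1 CPM most, since 0 counts still allowed 0.154 to 0.227 CPM before TMM scaling.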
